A study of Mus musculus with 24 samples.

Results

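The 9 genes described here are pluripotency and early lineage factors of the mouse inner cell mass, chosen by name among the 56326 genes and repeat families counted in the RNA data, and followed through all 12 RNA libraries. They are Pou5f1 (OCT4), Sox2, Nanog, Sall4 and Prdm14, the arginine methyltransferase gene Carm1, the Cripto gene Tdgf1, and Gata6 and Sox17 of the primitive endoderm. Zygotes from matings of 8-week-old B6D2F1 (BDF1) mice, labelled as background strain BDF2, had received 20 µM of antisense oligonucleotides (ASOs, which bind a complementary RNA and mark it for cleavage) in the male pronucleus. Control embryos carried a scrambled ASO, so both arms had been injected, and MERVL-KD embryos carried a mix of 3 ASOs against MERVL, an endogenous retrovirus transcribed at the 2-cell stage. Embryos were cultured and collected as 2-cell embryos at 1.5 days post-coitum, or as 4-cell or 8-cell embryos, both labelled 2.5 days post-coitum. Each library pooled 30 embryos without zona pellucida, and each of the 6 groups held 2 libraries. Since whole embryos were pooled, a lower level per embryo and fewer blastomeres or embryos with the transcript cannot be told apart.

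The inner cell mass is the part of the blastocyst that gives rise to the embryo proper and to the primitive endoderm. OCT4, SOX2, NANOG and SALL4 are transcription factors that bind each other's genes and hold cells in the pluripotent state, PRDM14 represses genes of other fates, and CARM1 places methyl groups on histone H3 arginines and works with PRDM14 in early blastomeres. Cripto is a membrane-anchored co-receptor for the ligand NODAL. GATA6 and SOX17 drive the primitive endoderm, and GATA6 and NANOG are the opposed markers of the fate choice inside the inner cell mass, under the control of FGF and ERK signalling.

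The oligonucleotides are printed first because they define the comparison, 5′ to 3′ and without their backbone modifications.
MERVL-ASO1: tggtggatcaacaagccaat
MERVL-ASO2: catttgtctgtttaccacga
MERVL-ASO3: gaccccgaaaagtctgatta
Scramble-ASO: agcgcgggtattgaaccagg
Each was compared with the sense strand of the whole transcribed span of the 9 genes in GRCm38. The closest site of any MERVL ASO in any of the 9 genes held 5 mismatches in 20 bases, and the fewest mismatches per gene and ASO ranged from 5 to 9. For the scrambled ASO the fewest per gene also ranged from 5 to 9. Gene by gene, the closest of the 3 MERVL ASOs held fewer mismatches than the scrambled ASO in all but Pou5f1 (7 against 5) and Gata6 (6 and 6), for instance 5 against 7 in Prdm14, Carm1 and Tdgf1. The closest of 3 ASOs is set here against a single scrambled ASO, which favours the lower number on the MERVL side. Single MERVL ASOs were no closer than the scrambled ASO in some genes, for instance MERVL-ASO2 and MERVL-ASO3 in Tdgf1 (7 against 7). A part of such sites in the results was not tested.

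The genes lie on several chromosomes of GRCm38. Pou5f1 is at chr17:35506018-35510772, Sox2 at chr3:34650405-34652461 and Nanog at chr6:122707489-122714633, all on the plus strand. Sall4 is at chr2:168748332-168767943 and Prdm14 at chr1:13113457-13127163 on the minus strand, and Carm1 is at chr9:21546894-21592623 on the plus strand. Tdgf1 is at chr9:110939603-110946158 and Sox17 at chr1:4490931-4497354 on the minus strand. Several share exon bases with a gene on the opposite strand. Carm1 shares 1025 exon bases with Yipf2, which held from 108 to 353 counts per library, and Gata6 shares 93 with Gata6os, which held from 1 to 179. The strand setting of the counting was not given in the sources used here, so reads of such pairs are not certain to be told apart. Processed copies took few counts: at most 12 for Nanog-ps1 and 34 for Tdgf1-ps1.

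RefSeq windows from 250 bases before to 50 bases after a transcription start were at hand for 4 of the 9 genes (Pou5f1, Sox2, Nanog and Tdgf1; 6 windows, GRCm38.p6). The upstream stretches of the 3 of these genes that were lower in 8-cell MERVL-KD embryos are given, each ending at the base before the first annotated exon. Capitals mark the joint OCT and SOX motif (CATTGT, any base, then ATGCAAA, either strand) in Nanog and the GC box (GGGCGG, either strand) in the other two.
Nanog, chr6:122707239-122707488, plus strand: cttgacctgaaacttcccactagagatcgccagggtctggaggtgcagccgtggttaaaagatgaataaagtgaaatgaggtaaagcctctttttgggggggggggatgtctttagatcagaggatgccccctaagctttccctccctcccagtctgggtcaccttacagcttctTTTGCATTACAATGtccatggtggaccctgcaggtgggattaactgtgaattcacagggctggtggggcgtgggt
Tdgf1, chr9:110946159-110946408, minus strand: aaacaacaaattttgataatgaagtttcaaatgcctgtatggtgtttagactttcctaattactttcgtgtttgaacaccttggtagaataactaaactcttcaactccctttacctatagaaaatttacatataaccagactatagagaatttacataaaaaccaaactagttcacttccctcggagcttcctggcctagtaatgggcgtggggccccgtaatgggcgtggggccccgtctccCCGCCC
Pou5f1, chr17:35505782-35506017, plus strand: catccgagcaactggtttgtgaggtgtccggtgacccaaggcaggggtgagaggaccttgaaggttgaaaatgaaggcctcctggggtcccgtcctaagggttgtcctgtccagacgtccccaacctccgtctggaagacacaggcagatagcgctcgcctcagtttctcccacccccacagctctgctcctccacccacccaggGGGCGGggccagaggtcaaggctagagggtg
The joint motif was found in 2 of 32851 windows of all genes, and both are windows of Nanog (one for each annotated start). In the printed strand it begins 75 bases before the first of these starts. The SOX letters CATTGT, which the joint motif contains, were in 12.6% of all windows, and among the 9 genes in those of Nanog and in the second window of Pou5f1. The GC box was in 35.7% of all windows, and the octamer ATGCAAAT and the GATA letters AGATAA, in 1.74% and 11.2% of all windows, were in none of the 6. A match of letters is a description of the sequence and no measurement of binding.

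The deposited values are raw counts, and library totals ranged from 28167085 to 41482526. Levels below are CPM, counts scaled to the effective library size from TMM over all 12 libraries, and levels compared between genes are also divided by exonic length (RPKM). Transcripts of the targeted element, counted as the family MERVL-int, took from 1.07% to 6.58% of all counts in control libraries and from 0.0278% to 0.157% in MERVL-KD libraries, so every library matched its label. Among values from 1 to 50 counts, 71.8% to 74.7% were even in each library, as where both mates of a pair are counted, so the number of fragments is smaller than the counts. Summed levels of 14 cumulus and granulosa cell markers lay between 23.3 and 37.5 CPM in every library, and those of 8 sperm markers were at most 2.04 CPM. The 13 oocyte markers summed to 1443 and 1526 CPM in control and to 964 and 1072 CPM in MERVL-KD 2-cell embryos, and to between 173 and 236 CPM at the later stages. The 15 markers of the 2-cell stage summed to between 1586 and 2183 CPM in control libraries and to between 917 and 1433 CPM in MERVL-KD libraries. A single gene, Sp110, held 1056 to 1772 of these CPM in control and 624 to 1138 in MERVL-KD libraries. From the earliest to the latest stage 7, 2 and 1 of the 15 markers passed lower and none passed higher, and their median log2 differences were -0.55, 0.22 and -0.05. Of all genes 7.39%, 5.84% and 3.56% passed lower at these stages, and 6.7%, 4.92% and 1.5% higher. Whether these shifts in stage markers contribute to the differences given below was not tested.

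Per length, Sall4 and Pou5f1 were the most abundant of the 9 factors at every stage. In control 2-cell embryos Sall4 was the highest, with 47.2 and 44.5 RPKM, followed by Pou5f1 with 35.9 and 35.0, Carm1 with 9.09 and 9.54 and Sox2 with 3.01 and 2.60. These 4 transcripts were separate in both libraries. Nanog (0.668 and 0.307), Prdm14, Gata6, Tdgf1 and Sox17 followed. Neighbours in that lower order overlapped between libraries, except Gata6 (0.314 and 0.233), which was above Tdgf1 (0.195 and 0).

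By the 4-cell stage the order in control embryos was Sall4 (68.4 and 67.8 RPKM), Pou5f1 (56.0 and 51.5), Tdgf1 (26.3 and 29.1), Nanog (15.0 and 19.7), Gata6 (14.6 and 15.0), Carm1 (10.3 and 9.87), Prdm14 (2.24 and 2.10) and Sox2 (0.166 and 0.118). The lower Nanog library and the higher Gata6 library were level, so these 2 genes overlapped. At the 8-cell stage Pou5f1, with 107 and 100.1 RPKM, stood above Sall4 with 91.6 and 93.0. Tdgf1 (43.5 and 40.1), Gata6 (33.1 and 34.0), Nanog (17.1 and 21.5) and Carm1 (11.5 and 12.2) followed without overlap. In MERVL-KD 8-cell embryos Sall4, with 69.7 and 71.5 RPKM, was above Pou5f1 with 61.0 and 67.1, and Gata6 (24.0 and 27.3) overlapped Tdgf1 (20.3 and 29.0).

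**Figure D1:**
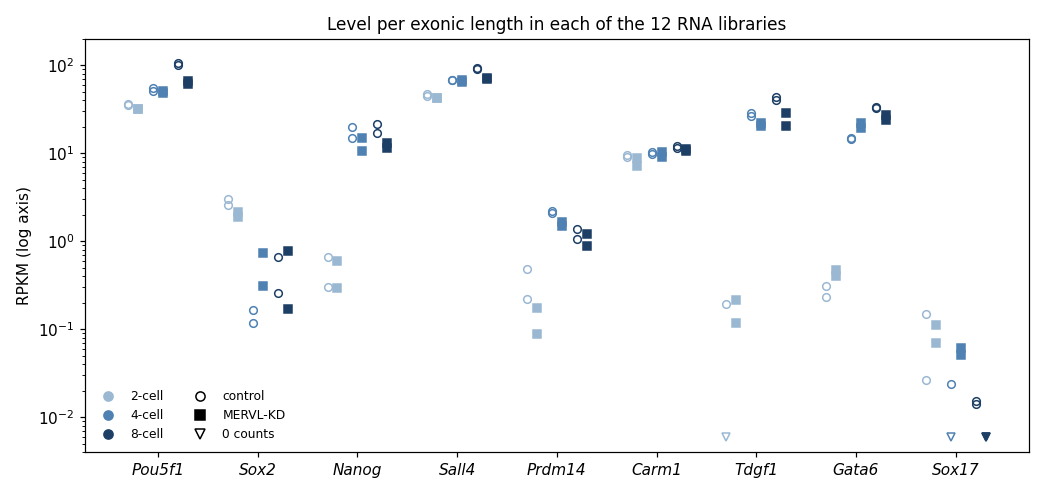
RPKM of each of the 9 genes (log axis) in the 12 RNA libraries, by stage from light to dark blue, with open circles for control and filled squares for MERVL-KD libraries. Triangles at the bottom stand for libraries with 0 counts. Sall4 and Pou5f1 lead at every stage, and Nanog, Tdgf1 and Gata6 climb from under 1 to over 10 RPKM between the 2-cell and the 4-cell stage.

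Control embryos, injected with the scrambled ASO, show the course of each factor without the knockdown. Between the 2-cell and the 4-cell stage 4 of the 9 genes rose at least 2-fold (Tdgf1, Gata6, Nanog and Prdm14) and Sox2 fell at least 2-fold, at an adjusted p under 0.05 in edgeR's quasi-likelihood test over all 12 libraries. A large share of all genes moved with them, since 20.7% of the 24040 genes tested were called higher and 24.3% lower in this comparison, and 26.4% and 28.7% passed at any fold.

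For Tdgf1, the NODAL co-receptor, 16 and 0 reads were counted at the 2-cell and 2434 and 2194 at the 4-cell stage of control embryos, or 0.510 and 0 against 69.1 and 76.2 CPM. Its log2 change was 8.23 ± 0.53 (SE; adjusted p = 7.41e-07, 2 libraries per group), which rests on the few reads of 1 library at the earlier stage. Gata6, the primitive endoderm factor, went from 2.04 and 1.51 CPM to 95.1 and 97.4 CPM (log2 change 5.77 ± 0.15, adjusted p = 7.91e-17). Nanog went from 1.50 and 0.688 CPM to 33.5 and 44.1 CPM (log2 change 5.17 ± 0.34, adjusted p = 1.78e-09). Both opposed lineage markers were thus near absent at the 2-cell stage and abundant in the same pools at the 4-cell stage.

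Prdm14 held 0.574 and 1.24 CPM in control 2-cell embryos and 5.73 and 5.39 CPM in 4-cell embryos, with a log2 change of 2.60 ± 0.43 (adjusted p = 2.03e-05). Sox2 went the other way, from 6.19 and 5.34 CPM to 0.340 and 0.243 CPM, with a log2 change of -4.27 ± 0.67 (adjusted p = 1.65e-05). Pou5f1 and Sall4 were already abundant at the 2-cell stage. They rose by less than 2-fold, Pou5f1 from 80.8 and 78.8 to 126 and 116 CPM (log2 change 0.60, adjusted p = 2.58e-05) and Sall4 from 261 and 246 to 379 and 375 CPM (log2 change 0.57, adjusted p = 6.98e-06). Carm1, with 44.1 and 46.3 CPM and then 49.8 and 47.9 CPM, did not pass (log2 change 0.11, 95% interval -0.15 to 0.38, adjusted p = 0.474).

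From the 4-cell to the 8-cell stage the control levels moved less. Gata6 alone was called, rising to 216 and 221 CPM (log2 change 1.18 ± 0.11, adjusted p = 9.13e-06), in a comparison that called 0.474% of all genes higher and 1.09% lower. Pou5f1 rose to 240.1 and 225 CPM (log2 change 0.94 ± 0.10, adjusted p = 3.20e-05) and Sall4 to 507 and 515 CPM (log2 change 0.44 ± 0.09, adjusted p = 0.00405), both by less than 2-fold. Together 3 of the 9 genes passed at any fold, all of them higher, against 3.19% of all genes higher and 2.68% lower. On library size alone, which moved the median gene to -0.21 on the log2 scale in this comparison, Gata6 was no longer called at 2-fold.

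The other factors did not pass between these stages. Nanog had 38.2 and 48.3 CPM at the 8-cell stage, within reach of its 4-cell values, and its log2 change of 0.16 had a 95% interval from -0.39 to 0.70. Tdgf1 had 114 and 105 CPM, above both 4-cell libraries, with a log2 change of 0.59 and an interval from -0.12 to 1.31. Prdm14 had 3.52 and 2.75 CPM, below both 4-cell libraries (log2 change -0.83, adjusted p = 0.245), and Sox2 had 1.38 and 0.536 CPM, above both (log2 change 1.68, adjusted p = 0.169).

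Sox17 was at the edge of detection throughout. At the 2-cell stage control libraries held 4 and 26 counts and MERVL-KD libraries 14 and 19. The counts were 4 and 0 against 9 and 10 at the 4-cell stage, and 2 and 2 against 0 and 0 at the 8-cell stage. A count of 3 per library was taken as the floor, and all 8-cell libraries were under it, so no fold is given there. The gene passed the filter on low counts at the 2-cell stage and not in the stage-wise comparisons at the 4-cell and 8-cell stages.

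**Figure D2:**
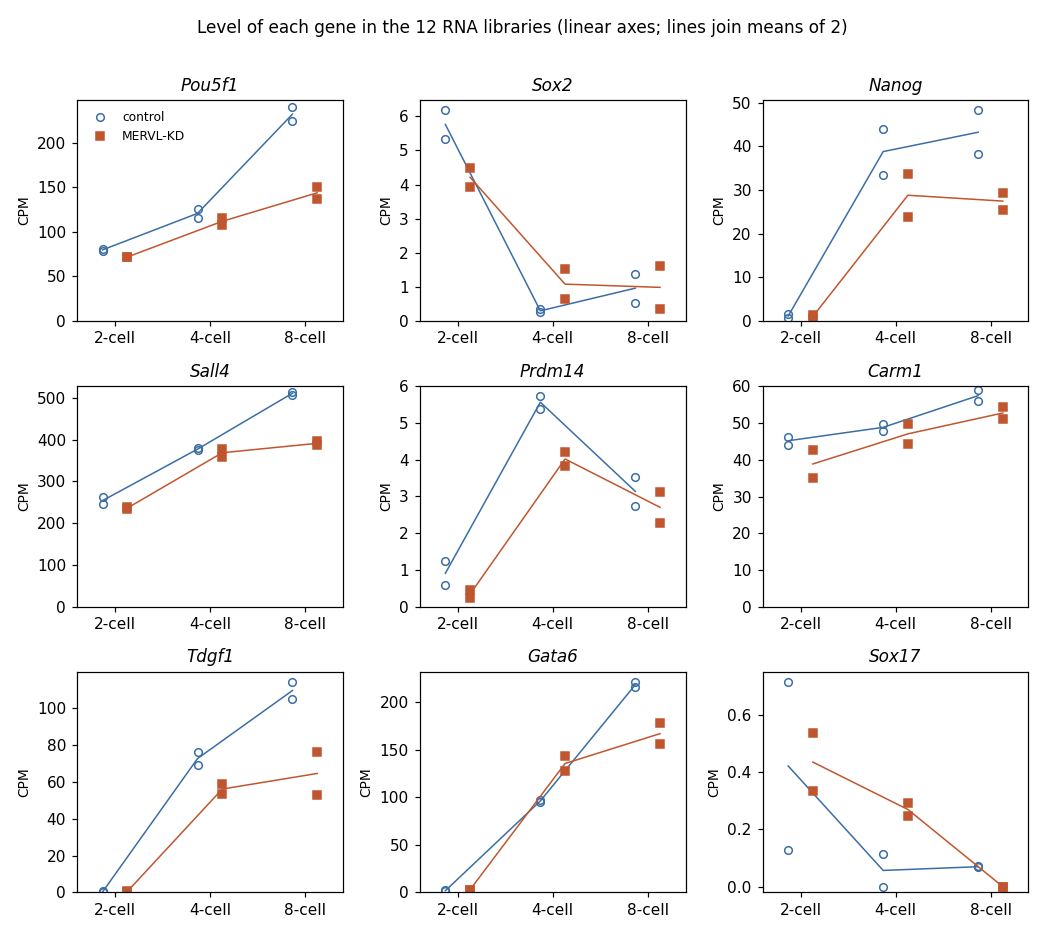
CPM of the 9 genes (one panel each, linear axes) at the 2-cell, 4-cell and 8-cell stages, with open circles for the 2 control libraries, filled squares for the 2 MERVL-KD libraries and lines through the means. At the 8-cell stage both MERVL-KD libraries of Pou5f1 (137 and 151 CPM), Nanog (29.4 and 25.5) and Sall4 (386 and 396) sit below both control libraries. Those of Tdgf1 (53.1 and 76.0), Gata6 (156 and 178) and Carm1 (51.0 and 54.5) do too. Sox17 held 0 and 0 counts there against 2 and 2. The arms did not overlap, in either direction, for 49.5% of all genes tested.

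MERVL-KD 2-cell embryos were compared with control 2-cell embryos to see whether the factors already differed when MERVL is most abundant. None of the 9 passed an adjusted p under 0.05 with edgeR, where 6.7% of the 20604 genes tested passed higher and 7.39% lower at any fold (4.37% and 2.24% at 2-fold or more), and none passed with DESeq2. Gata6 had 2.04 and 1.51 CPM in control and 3.04 and 2.66 CPM in MERVL-KD libraries (log2 difference 0.77 ± 0.34, 95% interval 0.04 to 1.49, adjusted p = 0.160).

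The abundant factors were close between the arms at this stage. Pou5f1 had 80.8 and 78.8 CPM against 71.4 and 72.0 CPM, and Sall4 had 261 and 246 against 238 and 234 CPM. Their log2 differences were -0.07 (95% interval -0.28 to 0.14) and -0.02 (95% interval -0.20 to 0.16) on the scaling of this stage, so a change of 1.5-fold lay outside both intervals. Carm1 had 44.1 and 46.3 CPM against 42.6 and 35.1 CPM, with a log2 difference of -0.13 and an interval from -0.40 to 0.13.

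Prdm14 had 18 and 45 counts in control and 19 and 8 in MERVL-KD 2-cell libraries, or 0.574 and 1.24 against 0.452 and 0.226 CPM. The MERVL-KD values were the lower ones, but the log2 difference of -1.31 had an interval from -2.75 to 0.12 (adjusted p = 0.229). Sox2 had 6.19 and 5.34 against 4.49 and 3.93 CPM (log2 difference -0.37, adjusted p = 0.374). Nanog, Tdgf1 and Sox17 held at most 47 counts per library and overlapped between the arms.

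Groups did not overlap in CPM for 6 of the 9 genes at the 2-cell stage, beside 57.5% of all genes tested. Scaling to library size alone moved the median gene of this comparison to 0.30 on the log2 scale, and the split of all genes from 6.7% higher and 7.39% lower to 21% and 3.35%. The directions of Pou5f1, Sall4, Nanog and Carm1 flipped with it, Sall4 then passed higher (log2 difference 0.26, adjusted p = 0.0377) and Gata6 was called higher (1.05, adjusted p = 0.0358). No direction is therefore given for these 4 genes at the 2-cell stage.

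In 4-cell embryos Gata6 rose and no other factor passed. Gata6 had 95.1 and 97.4 CPM in control and 144 and 128 CPM in MERVL-KD libraries, 1.41 times the control mean, and both MERVL-KD libraries were above both controls. The log2 difference was 0.50 ± 0.10 (SE, 2 libraries per group, adjusted p = 0.00891), below the 2-fold mark, in a comparison where 4.92% of 19738 genes passed higher and 5.84% lower at any fold, and 2.66% and 1.88% at 2-fold or more. Over 13 alternative settings its adjusted p ranged from 0.000479 to 0.0592, the highest with the first control 4-cell library left out.

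Nanog and Tdgf1 were on the other side without passing. Nanog had 33.5 and 44.1 CPM in control and 33.7 and 23.9 CPM in MERVL-KD 4-cell libraries, so that 1 MERVL-KD library lay inside the control range (log2 difference -0.42, 95% interval -0.84 to -0.01, adjusted p = 0.192). Tdgf1 had 69.1 and 76.2 against 53.5 and 58.7 CPM, with no overlap (log2 difference -0.37 ± 0.12, interval -0.62 to -0.11, adjusted p = 0.0675). DESeq2 gave Tdgf1 an adjusted p of 0.0440, and it was then the 1 factor that passed lower. Nanog and Tdgf1 each passed under 3 of 13 alternative settings at this stage.

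Pou5f1 and Sall4 overlapped between the arms at the 4-cell stage. Pou5f1 had 126 and 116 against 108 and 116 CPM, with a log2 difference of -0.11 and an interval from -0.32 to 0.11. Sall4 had 379 and 375 against 358 and 378 CPM, with a log2 difference of -0.03 and an interval from -0.21 to 0.16. Carm1, with 49.8 and 47.9 against 44.3 and 49.8 CPM, overlapped too (interval -0.32 to 0.22).

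Sox2 was low and uneven. It had 12 and 7 counts in control and 23 and 52 in MERVL-KD 4-cell libraries, or 0.340 and 0.243 against 0.632 and 1.52 CPM (log2 difference 1.86, 95% interval 0.28 to 3.44, adjusted p = 0.131). Prdm14 had 5.73 and 5.39 against 4.20 and 3.83 CPM, below in both MERVL-KD libraries (log2 difference -0.46, interval -1.07 to 0.14, adjusted p = 0.335). The arms did not overlap for 4 of the 8 factors tested, beside 54.4% of all genes tested.

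In 8-cell embryos 5 of the 8 factors that passed the filter on low counts fell: Pou5f1, Nanog, Sall4, Tdgf1 and Gata6. All 5 differences were under 2-fold. In this comparison 3.56% of the 18414 genes tested passed lower at any fold and 1.5% higher. At 2-fold or more 1.06% were called lower and 0.641% higher, none of them a factor of the 9. The arms did not overlap for 6 of the 8 factors tested, all lower in MERVL-KD embryos, beside 49.5% of all genes tested. The median log2 difference over the 8 factors was -0.38, beside 0.01 over all genes tested.

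Pou5f1 had 240.1 and 225 CPM in control and 137 and 151 CPM in MERVL-KD 8-cell libraries, 0.619 times the control mean. The log2 difference was -0.68 ± 0.09 (SE, 2 libraries per group, 95% interval -0.88 to -0.48, adjusted p = 0.00116), and it passed under all 13 alternative settings, with adjusted p from 1.87e-10 to 0.00338. The gap between the arms was larger than the gap between libraries of 1 arm. Sall4 had 507 and 515 against 386 and 396 CPM, 0.765 times the control mean (log2 difference -0.38 ± 0.08, adjusted p = 0.0154).

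Nanog had 38.2 and 48.3 CPM in control and 29.4 and 25.5 CPM in MERVL-KD libraries, 0.635 times the control mean, with a log2 difference of -0.65 ± 0.15 (adjusted p = 0.0312). Tdgf1 had 114 and 105 against 53.1 and 76.0 CPM, 0.589 times the control mean, with a log2 difference of -0.75 ± 0.15 (adjusted p = 0.0179). The 2 MERVL-KD libraries of Tdgf1 were far apart, and the log2 difference was -1.04 without the higher and -0.52 without the lower one. Gata6 had 216 and 221 against 156 and 178 CPM, 0.764 times the control mean, with a log2 difference of -0.38 ± 0.09 (adjusted p = 0.0359).

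The other 3 tested factors did not pass. Carm1 had 56.0 and 59.0 against 51.0 and 54.5 CPM, just below in both MERVL-KD libraries, with a log2 difference of -0.12 and an interval from -0.36 to 0.13. Prdm14 had 3.52 and 2.75 against 3.12 and 2.28 CPM and overlapped (interval -0.95 to 0.54). Sox2 had 1.38 and 0.536 against 0.346 and 1.62 CPM, where the libraries of each arm differed more than the arms (interval -1.55 to 1.66). For Carm1 a drop as large as that of Pou5f1 lay outside the interval, while for Prdm14 and Sox2 it did not.

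The 8-cell result depends on the scaling and on single libraries. On library size alone, which moved the median gene to 0.13 on the log2 scale, Pou5f1 (adjusted p = 0.00338) and Tdgf1 (0.0175) still passed, while Nanog (0.0933), Sall4 (0.0814) and Gata6 (0.125) kept a negative difference without passing. That scaling also turned the split over all genes from 1.5% higher and 3.56% lower to 3.07% and 1.97%. With either control library left out fewer of the 5 factors passed. A smaller share of all genes passed lower in these fits too, so the factors are not set apart by it. Without the first MERVL-KD library Gata6 had a log2 difference of -0.29 and did not pass. All 5 differences stayed negative whichever library was left out. In the single fit of all 12 libraries Pou5f1 and Sall4 passed, while Nanog (adjusted p = 0.195), Tdgf1 (0.263) and Gata6 (0.0505) did not.

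**Figure D3:**
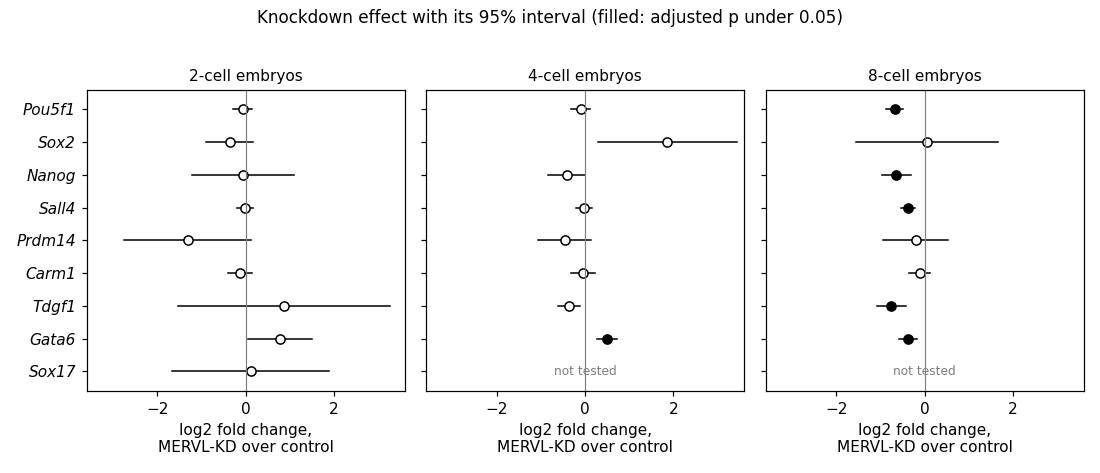
Log2 fold change of MERVL-KD over control for the 9 genes at each stage (edgeR, 4 libraries per stage), with 95% intervals as lines and filled points at an adjusted p under 0.05. Gata6 is the filled point on the right at the 4-cell stage (0.50), and Pou5f1 (-0.68), Nanog (-0.65), Sall4 (-0.38), Tdgf1 (-0.75) and Gata6 (-0.38) are the filled points on the left at the 8-cell stage.

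Whether the effect of the knockdown differed between stages was tested directly in one fit of the 12 libraries. From the 4-cell to the 8-cell stage the effect on Gata6 changed by -0.88 ± 0.16 on the log2 scale (adjusted p = 0.0115), from above control to below it, and no other factor passed. In this contrast 0.349% of 24040 genes passed lower and 0.275% higher. Leaving out the second control 8-cell library gave -0.81 and an adjusted p of 0.0578, and under the other 14 alternative settings it stayed under 0.05. For Pou5f1 the change was -0.58 ± 0.14 (adjusted p = 0.0590), for Sall4 -0.35 (0.214), for Tdgf1 -0.39 (0.811) and for Nanog -0.23 (0.879). Pou5f1 passed lower under 4 of 15 alternative settings and Sall4 under 1, which was DESeq2.

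The 95% interval reached 0.55 for Nanog and 0.62 for Tdgf1, and it held 0 for both, so neither a stronger effect at the 8-cell stage nor a like effect at both stages was shown for them. Between the 2-cell and the 4-cell stage no factor passed in edgeR's quasi-likelihood test or in DESeq2. In the edgeR test 2.51% of all genes passed higher and 1.64% lower. For Sox2 the change was 2.30 ± 0.86 (adjusted p = 0.156 in edgeR).

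The stage course inside the MERVL-KD arm gives the same values from another side. From the 2-cell to the 4-cell stage Tdgf1 (log2 change 7.02), Gata6 (5.57), Nanog (4.87) and Prdm14 (3.53) were called higher and Sox2 (-1.97) lower in MERVL-KD embryos, beside 21.2% and 23% of all genes (27.1% and 27.3% at any fold). These 5 genes are those called in control embryos. The rise of the lineage factors at this step was thus present in both arms.

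From the 4-cell to the 8-cell stage Pou5f1 alone passed in MERVL-KD embryos, at less than 2-fold (log2 change 0.36 ± 0.10, adjusted p = 0.0393), where 2.27% of all genes passed higher and 2.41% lower (0.333% and 1.31% at 2-fold or more). Gata6 went from 144 and 128 to 156 and 178 CPM (log2 change 0.30 ± 0.11, adjusted p = 0.138). Sall4 went from 358 and 378 to 386 and 396 CPM (log2 change 0.09 ± 0.09, adjusted p = 0.681), and Nanog from 33.7 and 23.9 to 29.4 and 25.5 CPM (log2 change -0.07, adjusted p = 0.939).

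Set beside the control stages, both MERVL-KD 8-cell libraries of Pou5f1, Sall4 and Gata6 lay between the control 4-cell and the control 8-cell libraries. Those of Carm1 did too, but Carm1 passed neither between these control stages (log2 change 0.23) nor between the arms (-0.12). How many of all genes lie in this way was not counted, so the position is a description. For Pou5f1 the MERVL-KD 8-cell libraries held 137 and 151 CPM, above 126 and 116 and below 240.1 and 225. Both MERVL-KD 8-cell libraries of Nanog (29.4 and 25.5 CPM) lay below the control 4-cell libraries as well (33.5 and 44.1 CPM). Those of Tdgf1 were at 53.1 and 76.0 CPM, and the control 4-cell libraries at 69.1 and 76.2 CPM. The labels give the 4-cell and 8-cell embryos the same day, and a difference in developmental pace at collection was not tested.

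**Figure D4:**
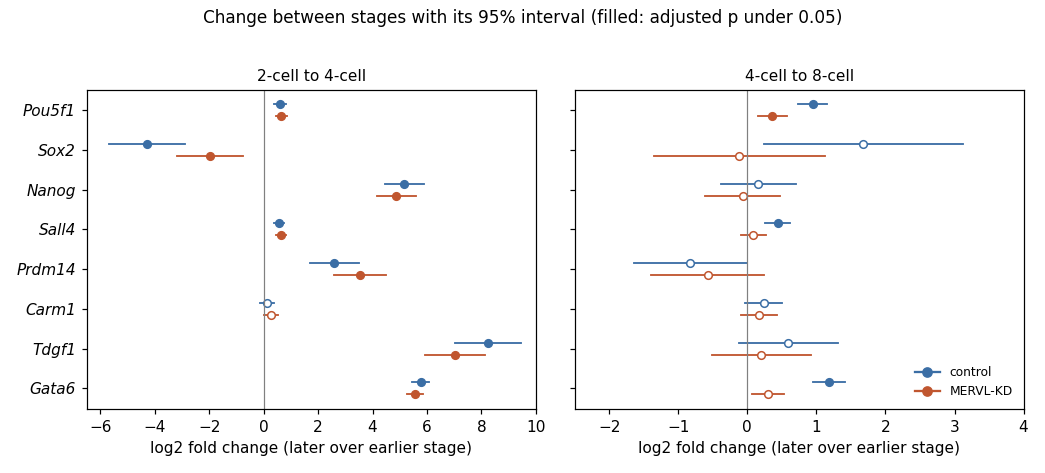
Log2 fold change between consecutive stages for 8 of the genes in control (blue) and MERVL-KD (orange) embryos, with 95% intervals as lines and filled points at an adjusted p under 0.05. Sox17 is left out because of its counts. At the 4-cell to 8-cell step the control values of Pou5f1 (0.94), Sall4 (0.44) and Gata6 (1.18) are filled, and in MERVL-KD embryos the value of Pou5f1 (0.36) is.

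Across the 12 libraries the factors fell into few courses. Pearson's r of log2(CPM + 1), over libraries that share their stage and arm, was 0.99 between Nanog and Tdgf1, 0.99 between Tdgf1 and Gata6 and 0.98 between Nanog and Gata6. It was 0.97 between Pou5f1 and Sall4. Sox2 ran against them, with r of -0.93 to Nanog and -0.90 to Tdgf1. They are given as a description.

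Among 14719 other genes with a mean of at least 1 CPM, those most like Nanog included Slc8b1 (r = 0.994). Those most like Tdgf1 were Brd3, a bromodomain protein gene (0.998), and Psma5, a proteasome subunit gene (0.998), and those most like Gata6 were Gm6136 (0.999) and the transketolase gene Tkt (0.998). Pou5f1 was closest to H60b (0.982) and Api5 (0.977), Sall4 to Thoc3 (0.988) and Sync (0.986), Prdm14 to Rnf168 (0.982) and Plk1 (0.976), and Sox2 to Arnt (0.984), followed by Abhd17c. Carm1 was closest to Hnrnpab (0.946) and to Zfp42, the naive pluripotency marker also called Rex1 (0.944). For Sox17 the closest were Rgs22 (0.939) and Nfam1 (0.881), at the counts near the floor given above.

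Other genes of the same pathways were read as lists. Of 30 genes of the naive pluripotency network, 2 of the 29 tested passed higher and 7 lower at any fold in 2-cell MERVL-KD embryos, 5 and 3 of 28 did at the 4-cell stage, and none and 4 of 27 at the 8-cell stage. Of all genes 6.7% passed higher and 7.39% lower, 4.92% and 5.84%, and 1.5% and 3.56% at these stages. Their median log2 differences were -0.15, 0.02 and -0.20, beside 0.01, 0.03 and 0.01 over all genes. Those called at 2-fold or more included both subunits of the LIF receptor, LIFR and gp130 (Il6st).

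Lifr had 1.56 and 1.95 CPM in control and 7.06 and 7.19 CPM in MERVL-KD 4-cell embryos (log2 difference 2.03 ± 0.30, adjusted p = 0.00151). Il6st had 20.8 and 19.2 against 8.29 and 7.83 CPM at the 4-cell stage (log2 difference -1.30, adjusted p = 0.00102) and 15.3 and 14.2 against 6.49 and 4.10 CPM at the 8-cell stage (-1.47, adjusted p = 0.00522). The 2 subunits thus moved in opposite directions at the 4-cell stage.

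In control embryos members of the network moved in both directions. Between the 2-cell and the 4-cell stage 10 of the 29 genes tested were called higher and 7 lower, beside 20.7% and 24.3% of all genes. Those higher included Klf2 (log2 change 4.28), Klf5 (2.43) and Dppa2 (1.91), and those lower the LIF signal transducer Stat3, Il6st (-2.19) and L1td1 (-2.11). Between the 4-cell and 8-cell stages none was called, and 7 passed higher at less than 2-fold, beside 3.19% of all genes.

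The primitive endoderm list holds 20 genes that accompany or follow GATA6 and SOX17. In MERVL-KD 2-cell embryos 2 of 18 were called higher and 1 lower, beside 4.37% and 2.24% of all genes, and in 4-cell embryos 1 of 18 was called higher, beside 2.66%. That gene was Pdgfra, the PDGF receptor of the primitive endoderm, with 7.58 and 8.55 CPM in control and 21.8 and 29.4 CPM in MERVL-KD 4-cell embryos (log2 difference 1.67 ± 0.20, adjusted p = 0.000300). Gata6 also passed higher at this stage. At the 2-cell stage the log2 difference was 0.07 for Pdgfra and 0.77 for Gata6, and neither passed. At the 8-cell stage the arms of Pdgfra overlapped (log2 difference 0.35, adjusted p = 0.451), none of the list was called, and 1 of 15 passed in each direction at any fold, beside 1.5% of all genes higher and 3.56% lower.

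The genes of this list that were called in 2-cell embryos were Sparc, a matrix glycoprotein gene (0.893 and 0.991 against 4.63 and 3.51 CPM, log2 difference 2.19), Runx1 (log2 difference 1.25) and the collagen hydroxylase gene P4ha2 (48.9 and 50.2 against 23.0 and 23.1 CPM, log2 difference -1.02). Gata4, the partner of GATA6, did not pass at any stage, with log2 differences of -0.32, -0.28 and -0.25. Between the control 2-cell and 4-cell stages Pdgfra (2.05), Runx1 (1.99) and Lrp2 (1.24) were called higher and 7 of 18 lower, beside 20.7% and 24.3% of all genes. Those lower included Srgn (-3.86), Dab2 (-2.63) and Lamc1 (-1.43). In the following step Dab2 (1.15) was called higher and Sparc (-2.32) lower.

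FGF and ERK signalling, which sets the balance of NANOG and GATA6, was followed with 25 genes, all of them tested at the 2-cell and 4-cell stages. At the 4-cell stage 7 passed higher and 1 lower in MERVL-KD embryos, beside 4.92% and 5.84% of all genes. The ERK phosphatase genes Dusp6 (3.32 and 5.66 against 14.2 and 21.7 CPM, log2 difference 2.01, adjusted p = 0.00138) and Dusp4 (2.24 and 2.99 against 6.92 and 6.66 CPM, 1.39, adjusted p = 0.0116) were called higher. Spry4, an inhibitor of the pathway, was called lower (65.2 and 54.5 against 25.7 and 29.8 CPM, -1.10, adjusted p = 0.000561). At the 2-cell stage 4 passed higher and 2 lower, beside 6.7% and 7.39% of all genes, and the receptor genes Fgfr4 (1.15) and Fgfr3 (1.26) were called higher. At the 8-cell stage none of 24 was called and 1 passed lower, beside 3.56% of all genes.

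Fgf4, the ligand, had log2 differences of 0.55, 0.48 and 0.93 at the 3 stages, of which the first passed (adjusted p = 0.0477, the others 0.153 and 0.0562). In control embryos 9 of the 25 genes were called higher and 9 lower from the 2-cell to the 4-cell stage, beside 20.7% and 24.3% of all genes. Sos1 (2.59), Map2k2 (1.45) and Fgfr4 (2.90) were among those higher, and Spry4 (-3.63) and Mapk3 (-4.47) among those lower. Fgf4 was called lower from the 4-cell to the 8-cell stage (-1.07, adjusted p = 0.0425).

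Of 20 genes of Nodal and Cripto signalling, the pathway of Tdgf1, 15 were tested at the 2-cell and 14 at the later stages, and none was called between the arms. Counts passing at any fold were 2 higher and 1 lower, 2 higher and none lower, and 1 in each direction, where 6.7% and 7.39%, 4.92% and 5.84%, and 1.5% and 3.56% of all genes passed. Nodal itself did not pass the filter on low counts at the 4-cell and 8-cell stages, and Cfc1, the paralogue of Tdgf1, at none. From the control 2-cell to the 4-cell stage 4 of 16 were called higher, among them Smad4 (1.44), Pcsk6 (2.70) and Acvr2a (1.57), and 3 lower, Smad3 (-2.33), Smurf2 (-1.15) and Acvr1b (-1.67), beside 20.7% and 24.3% of all genes.

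Partners of PRDM14 and CARM1 were read as 22 genes, among them the paraspeckle proteins that CARM1 methylates. In MERVL-KD embryos 7 of 22 passed lower in 2-cell, 3 in 4-cell and 3 in 8-cell embryos, and none passed higher at any stage. Beside these counts 7.39%, 5.84% and 3.56% of all genes passed lower, and 6.7%, 4.92% and 1.5% passed higher. Pspc1, the gene of paraspeckle component 1, was called at each stage, with 40.1 and 45.6 against 22.0 and 17.3 CPM at the 2-cell stage (log2 difference -1.04), 66.4 and 59.8 against 29.7 and 23.9 CPM at the 4-cell stage (-1.23) and 78.8 and 75.7 against 36.4 and 37.2 CPM at the 8-cell stage (-1.06, adjusted p = 0.000162).

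Neat1, the noncoding RNA that builds paraspeckles, had 34.1 and 19.2 CPM in control and 7.89 and 8.91 CPM in MERVL-KD 2-cell embryos (log2 difference -1.59, adjusted p = 0.000455), and its arms overlapped at the later stages. In control embryos 7 of the 22 were called higher and 5 lower from the 2-cell to the 4-cell stage, beside 20.7% and 24.3% of all genes. Prmt1 (2.26) and Prmt9 (3.94) were among those called higher, and Ncoa2 (-3.05), Ncoa1 (-2.64) and Crebbp (-1.32) among those called lower. Carm1 itself passed in none of the comparisons between arms given above.

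Genes of the trophectoderm, the other lineage of the blastocyst, were read for comparison. Of 20 genes, 4 of 18 were called higher in 2-cell and 4 of 17 in 4-cell MERVL-KD embryos, and none was called lower. Of all genes 4.37% and 2.66% were called higher and 2.24% and 1.88% lower. At any fold 5, 5 and 1 passed higher and 0, 2 and 0 lower at the 3 stages, and their median log2 differences were 0.42, 1.13 and -0.10. At the 2-cell stage these included Id2 (4.53 and 2.42 against 11.5 and 12.1 CPM, log2 difference 1.85), Gata2 (5.10 and 7.38 against 12.5 and 19.5 CPM, 1.44) and Hand1 (2.19). At the 4-cell stage they included Krt8 (4.20 and 5.52 against 24.6 and 28.1 CPM, 2.45), Krt18 (1.41) and Atp1b1 (1.86). At the 8-cell stage Atp1b1 alone was called (6.06 and 7.44 against 13.6 and 15.3 CPM, 1.11), 1 of 17 genes beside 0.641% of all genes. Summed over the 20 genes the arms overlapped at the 4-cell stage, with 923 to 966 CPM in control and 881 to 1045 CPM in MERVL-KD libraries. At the 2-cell stage both MERVL-KD sums (1212 and 1244 CPM) were below both control sums (1251 and 1319 CPM). The same held at the 8-cell stage, with 957 and 1031 CPM against 1085 and 1140 CPM.

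In control embryos 5 of 19 trophectoderm genes were called higher and 7 lower between the 2-cell and 4-cell stages, beside 20.7% and 24.3% of all genes. Those higher included Cldn4 (5.56), Tead4 (4.09) and Tfap2c (1.26), and those lower Yap1 (-2.18), Atp1b1 (-1.96) and Gata2 (-4.19). In the following step Krt8 (1.12) and Gata3 (1.42) were called higher and Id2 (-1.60) lower, beside 0.474% and 1.09% of all genes.

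**Figure D5:**
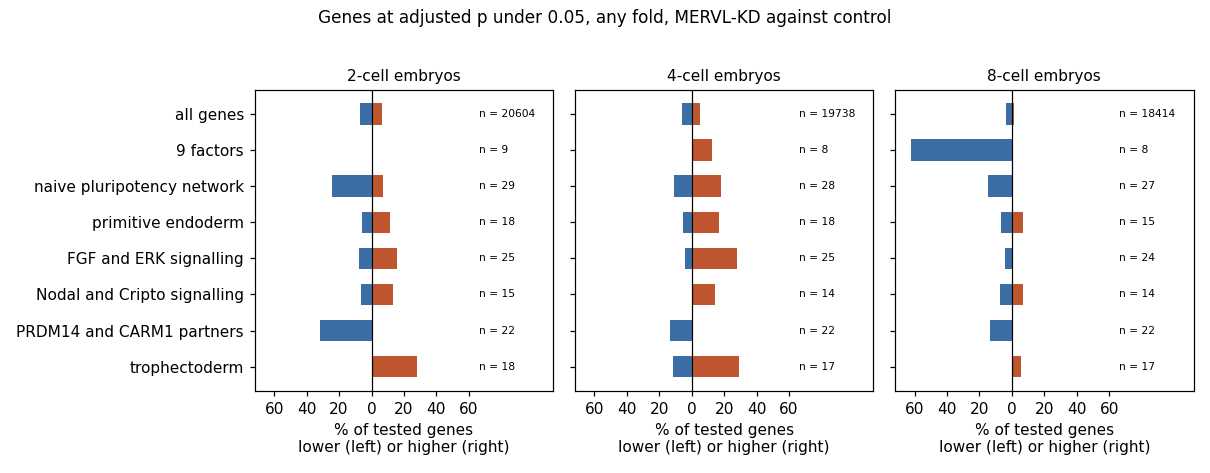
Share of the tested genes of each list at an adjusted p under 0.05 and any fold in MERVL-KD against control embryos, lower to the left and higher to the right (n, genes tested), with all genes in the top row. The 9 factors have 5 of 8 lower at the 8-cell stage, beside 3.56% of all genes, and 1 of 8 higher at the 4-cell stage; the lists were chosen with earlier results of these data known.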

How the data were processed

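Total RNA of 12 libraries was analysed. The 12 ATAC libraries of the series were not analysed here. Per the submitters' processing notes the reads were aligned to GRCm38 (mm10) with STAR 2.5.3a and assigned with featureCounts, with DESeq2 1.16.1 also named. The authors deposited raw counts per gene and repeat family, from unique alignments and without normalization, and the strand setting was not given in the sources used here. Totals ranged from 28167085 to 41482526 counts, without molecular identifiers. The floor of 3 counts covers counting error only, while standard errors rest on the spread between libraries.

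MERVL-KD and control were compared stage by stage with edgeR 4.0.16 (R 4.3.3; filterByExpr, TMM, robust quasi-likelihood test), 4 libraries per fit. Stages, and the difference of the knockdown effect between stages, were compared in one fit of all 12 libraries. Benjamini-Hochberg adjustment covered every gene and repeat family tested. A gene passed at an adjusted p under 0.05, and it was called where its change was also at least 2-fold. The background shares count genes only. The test was tried on simulated counts with 200 changed genes. The simulation gave every gene the same spread and changed no gene with few counts, so it does not cover the factors with few counts. Libraries of 1 group differed by more than sampling noise (chi-square over degrees of freedom, 12.9 to 22.6). The methods describe 2 biological replicates per group. Alternatives were DESeq2 1.42.0, other scalings and filters on low counts, halved counts, the replicate number as a block, repeat families left out, other sets of libraries in the fit, and each library left out.

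The 9 factors and all gene lists were chosen with earlier results of these data known, so their counts are descriptions. Named list genes are those called at 2-fold or more, at most the 3 of smallest adjusted p per direction. Others (Fgf4, Gata4, Nodal, Cfc1) were named after their values were seen. Likeness between genes is Pearson's r of log2(CPM + 1) over 12 libraries, with the 2 most alike named per factor. Some genes that these rules select are not reported here.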

Additional observations from a re-analysis of the deposited data

Results flagged for a closer look

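The effect of the knockdown on Gata6 differed between the 8-cell and the 4-cell stage by -0.88 on the log2 scale (interaction term in the 12-library edgeR fit, adjusted p = 0.0115). Its log2 differences from control were 0.77 in 2-cell, 0.50 in 4-cell and -0.38 in 8-cell embryos.

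The other differences between stages concern genes of the lists. Between the 4-cell and the 2-cell stage the effect changed by 2.23 for Lifr (adjusted p = 0.0081), by -1.24 for Il6st (0.00339), by -1.22 for Spry4 (7.96e-05), by 1.68 for Pdgfra (0.0111) and by 1.59 for P4ha2 (2.41e-05). For P4ha2 the log2 difference from control was -1.02 in 2-cell and 0.48 in 4-cell embryos, and both passed. Gdf9, an oocyte growth factor gene, differed by 0.76 (0.0219). Among trophectoderm genes the effect changed by 1.58 for Atp1b1 (0.00244) and by -1.11 for Tead4 (0.00351), whose log2 differences were 0.63 and -0.56. Krt8 differed by 1.89 from the 2-cell to the 4-cell stage (0.00195) and by -2.33 from the 4-cell to the 8-cell stage (0.00184), with log2 differences of 0.64, 2.45 and 0.11. Causes of these differences were not tested.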

How the results depend on the processing

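The 2 libraries per group leave few degrees of freedom, and values near the filter on low counts (Sox17 throughout, Tdgf1 and Prdm14 at the 2-cell stage, Sox2 after it) rest on few reads. With a library left out, the lone library of a group was assumed to vary like the others. The cause of the shifts below was not tested.

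Library size alone in place of TMM moved the median gene by up to 0.30 (log2). At the 2-cell stage 1 factor was then called higher and 2 passed at any fold, and the differences of Pou5f1 (0.22), Nanog (0.22), Sall4 (0.26) and Carm1 (0.16) turned positive. So did those of Sall4 (0.034) and Carm1 (0.012) at the 4-cell and of Carm1 (0.010) at the 8-cell stage, where 2 factors passed lower instead of 5. Between the 4-cell and 8-cell stages 0 of the 9 were called in control embryos, 0 passed in MERVL-KD embryos, and Nanog in control (-0.045) and Sall4 in MERVL-KD embryos (-0.050) turned negative. The change of the knockdown effect from the 2-cell to the 4-cell stage turned to -0.26 for Pou5f1, -0.23 for Sall4 and -0.14 for Carm1.

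In one fit of all 12 libraries 1 factor passed higher at the 2-cell stage, beside 2.98% of all genes. There 2 passed lower at the 8-cell stage, beside 3.15%. In DESeq2 1 passed lower at the 4-cell stage, beside 6.84% of all genes. In the change of the effect from the 4-cell to the 8-cell stage 3 passed lower (Gata6, Pou5f1 and Sall4), beside 1.17% of all genes. That last count was 2 with DESeq2's size factors, with halved counts and with a minimum of 10 counts per library. Beside it 0.403%, 0.523% and 0.691% of all genes passed lower. The minimum of 10 counts removed Sox2, Prdm14 and Tdgf1 from the 2-cell to 4-cell comparisons, leaving 2 called higher and 0 lower in each arm. Of 13317 genes 3444 were then called higher and 3845 lower in control, and 3271 and 3813 in MERVL-KD embryos. The same minimum turned the change of the effect to -0.045 for Pou5f1 and -0.014 for Sall4. With at least 1 count in all libraries together, 2 passed lower at the 4-cell stage, beside 3.68% of all genes. In the change of the effect from the 2-cell to the 4-cell stage 1 then passed higher, beside 1.7%. From the 4-cell to the 8-cell stage of MERVL-KD embryos 0 passed, beside 1.47% higher and 1.94% lower. The last count was also 0 in a fit of those 4 libraries alone, beside 0.882% and 0.954%.

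With each library left out in turn, from 2 to 5 factors passed lower at the 8-cell stage (3 and 2 without the first and second control library, 4 without the first MERVL-KD library), and from 0 to 1 was called lower (Tdgf1, without the second MERVL-KD library). At the 4-cell stage they ranged from 0.41 to 0.58 (Gata6), -0.70 to -0.19 (Nanog) and -0.44 to -0.30 (Tdgf1). From the 4-cell to the 8-cell control stage the log2 change ranged from 1.16 to 1.22 (Gata6) and from 0.89 to 1.01 (Pou5f1). In MERVL-KD embryos the change of Sox2 from the 2-cell to the 4-cell stage ranged from -2.78 to -1.47. That of Pou5f1 from the 4-cell to the 8-cell stage ranged from 0.31 to 0.46. The change of the effect ranged from -7.27 to -0.13 for Tdgf1 (4-cell against 2-cell) and from -0.96 to -0.79 for Gata6 (8-cell against 4-cell). Some differences changed sign, and none passed the threshold in the fit in which its sign was the other one. At the 2-cell stage they ranged from -0.63 to 0.60 (Nanog), -0.089 to 0.018 (Sall4), -0.17 to 7.08 (Tdgf1) and -0.64 to 1.80 (Sox17), at the 4-cell stage from -0.066 to 0.0032 (Sall4) and -0.13 to 0.027 (Carm1), and at the 8-cell stage from -1.45 to 0.89 (Sox2) and -0.45 to 0.00079 (Prdm14). Between the 4-cell and 8-cell stages they ranged in control from -0.027 to 0.37 (Nanog) and -0.67 to 4.33 (Sox17), and in MERVL-KD embryos from -1.59 to 0.69 (Sox2), -0.26 to 0.20 (Nanog) and -0.047 to 0.44 (Tdgf1). The change of the effect ranged, 4-cell against 2-cell, from -0.12 to 0.11 (Pou5f1), -0.92 to 0.25 (Nanog), -0.078 to 0.11 (Sall4), -0.037 to 0.31 (Carm1) and -0.40 to 0.00077 (Gata6), and, 8-cell against 4-cell, from -0.44 to 0.044 (Nanog) and -0.15 to 0.050 (Carm1).

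The deviations of libraries that share a replicate number had correlations of -0.06, 0.01 and 0.03 at the 3 stages. These values cover all features together and cannot exclude that the numbers pair the libraries. With the replicate number as a block 5 factors passed lower at the 8-cell stage, as without it, and Sox2 moved to -0.13. Of all genes 2.47% then passed higher and 4.8% lower at that stage, beside 1.5% and 3.56% without the block.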
